A study of Mus musculus with 3 samples.

Results

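The ABC (ATP-binding cassette) transporters of subfamilies A to G were measured in the choroid plexus epithelium (CPE) of the mouse. Members were all array probes, other than controls, whose gene name in the scanner files began with Abc, a lower-case letter from a to g and a digit. This rule gave 94 probes of 49 genes, among 41174 probes and 27845 gene names on the array. A single probe represented 19 of the genes, and the other 30 had several, with 5 at most. The accession of 79 ABC probes matched a RefSeq transcript, and all 79 carried the same symbol there. Subfamily A held 15 genes, B and C held 10 each, D held 4, E held 1, F held 3 and G held 6.

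The CPE came from 3 healthy adult female C57BL/6 mice, with no treatment and no genetic change named, and each mouse is 1 array. CPE cells of the lateral ventricles were cut from frozen sections of the brain with a laser, and their RNA was amplified and labelled with the red dye Cy5. The common reference was C57BL/6 RNA of the choroid with the RPE, the pigmented epithelium under the retina, labelled with the green dye Cy3 on every array. As the reference was 1 RNA and the dyes were never exchanged, its biological spread is not in the errors and a preference of a probe for a dye stays in every ratio.

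ABC transporters bind and hydrolyse ATP and use the energy to move a substrate across a membrane, most often out of the cytosol. Some members work as a single chain, others pair up as dimers, and the members of subfamilies E and F have no membrane part and act on ribosomes. The CPE is the barrier between blood and cerebrospinal fluid (CSF), where drug efflux pumps of subfamilies B, C and G and the sterol transporters of subfamilies A and G have been studied most, since they limit the entry of drugs and hand cholesterol to the apolipoproteins of the CSF.

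The samples matched their label, and the arrays differed in background. All 10 CPE markers fixed for this check, among them *Ttr*, *Kl* and *Kcne2*, were well above background in all 3 mice and above the 90th percentile of the array, and 9 were higher than the reference. Markers of the RPE and melanocytes (7 of 8), photoreceptors (7 of 7) and neurons (3 of 4) were lower in the CPE, so the reference carried signal of retinal cells as well, and 3 of 4 macrophage markers were lower too. Signal of endothelial markers was present in the CPE channel, and its source was not tested: all 7 markers were well above background in all 3 mice, with *Kdr* at percentile 97.1 and *Emcn* at 96.2, and 1 of them, *Vwf*, was lower than the reference. The median background surface in the CPE channel was 363 intensity units in mouse 3 against 81.2 and 82.6 in mice 1 and 2. Well above background by the scanner's flag were 57 ABC probes in the CPE of mouse 1, 42 in that of mouse 2 and 86 in that of mouse 3, against 58.5%, 46.0% and 85.6% of all probes, and 30 ABC probes had the flag in mouse 3 alone.

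In the CPE, 29 of the 49 ABC genes had a probe well above background in all 3 mice. These were 42 of the 94 probes, or 44.7%, against 44.9% of all probes on the array. No ABC probe was saturated and none was an outlier spot. Following the study, a probe was placed by the percentile of its CPE signal among all probes, where high means above 90, moderate 50 to 90, low 10 to 50 and very low below 10. A percentile ranks signals of different probes, which differ in how well they hybridise, and it does not order the transcripts by abundance.

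The high class held 9 ABC probes of 9 genes, which was 9.57% of the ABC probes against 10% of all probes, and 18.4% of the ABC genes against 12.7% of all gene names. A gene counted as high with any high probe, so the share of genes also depends on how many probes each gene had. The 9 genes were *Abcd3* (percentile 97.8), *Abcc4* (95.8), *Abca2* (95.4), *Abca7* (93.3), *Abce1* (93.1), *Abcg1* (92.9), *Abca1* (92.7), *Abcb9* (92.4) and *Abca4* (91.0). Thus the high class mixed a peroxisomal transporter, an efflux pump, sterol and lipid transporters, a lysosomal peptide transporter and a ribosome recycling factor. The first 8 of these genes were above the 90th percentile in every mouse, while *Abca4* was at 93.8, 91.2 and 85.5 in mice 1, 2 and 3. Just outside the limit were *Abca5* at 89.2, *Abcc1* at 88.7 and the other *Abca2* probe at 88.5. Without mouse 1, *Abcc1* took the place of *Abca4* in the high class, and with only probes well above background ranked, *Abcd3* and *Abcc4* alone remained in it. Moderate were 38 probes, low were 39 and very low were 8. In 16 of the 30 genes with several probes, the probes fell into different classes, and *Abca7* and *Abce1* had a low probe beside their high one. The plot of percentiles by probe shows these gaps within genes.

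**Figure D1:**
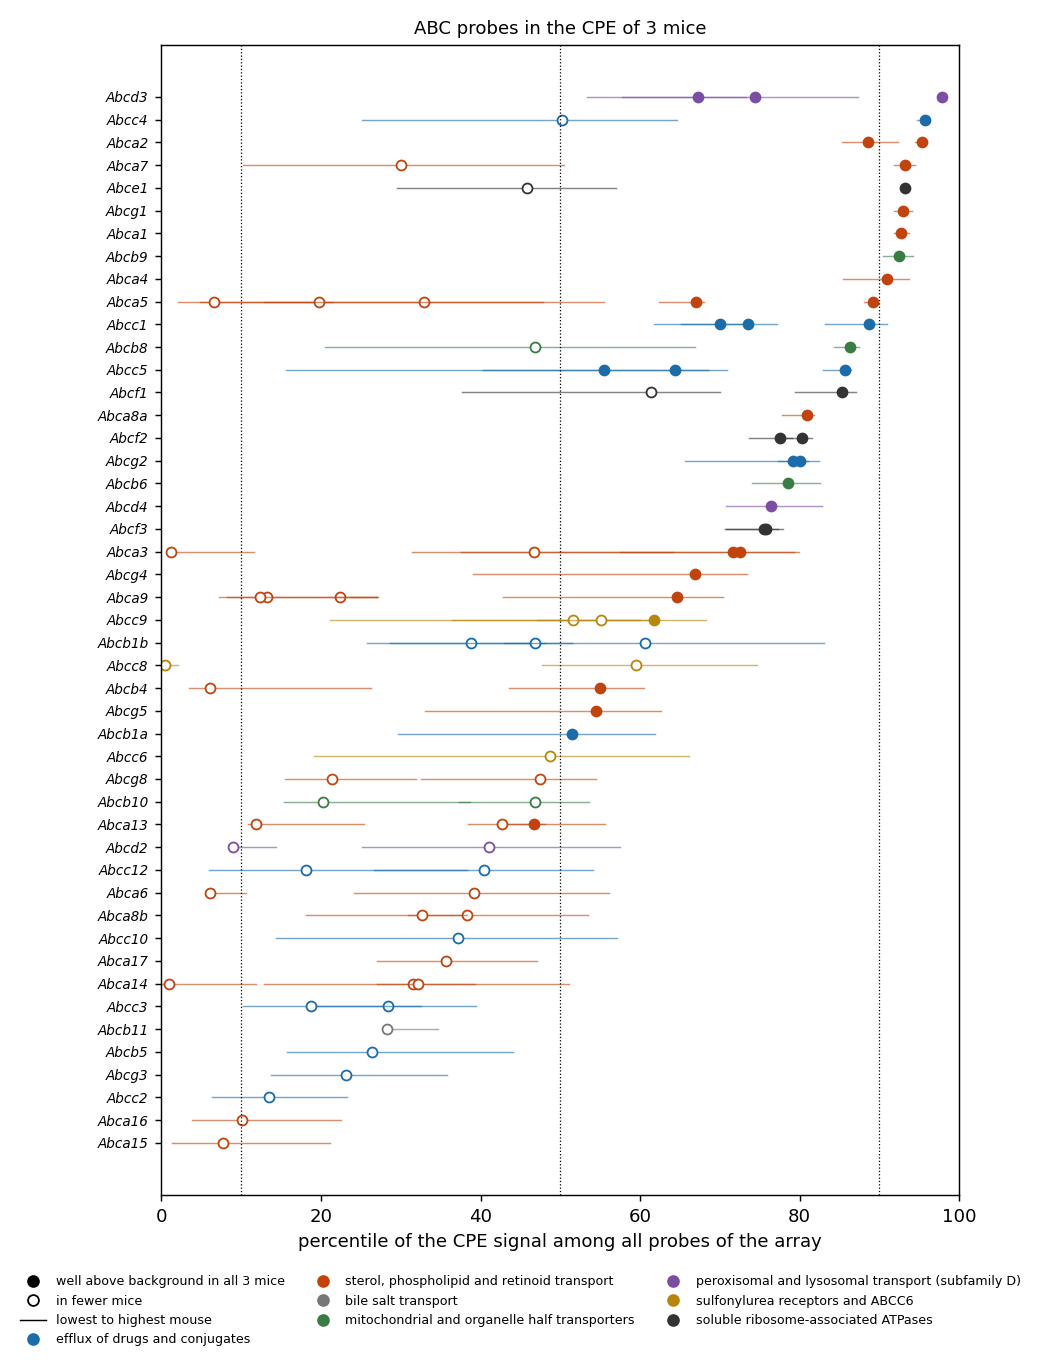
Percentile of the CPE signal among all probes of the array (x axis) for 89 ABC probes, by gene (y axis, ordered by the highest probe). Points are the percentile of the mean over 3 mice, lines run from the lowest to the highest mouse, colours give the role of the gene and dotted lines the class limits at 10, 50 and 90; open symbols were not well above background in all mice, 9 probes lie above 90, and *Abca7* and *Abce1* each have a probe there and a probe below 50.

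To compare the CPE with the reference, the log2 ratio was tested against 0 for probes that had the flag on every array in the CPE, in the reference or in both, which kept 58 ABC probes and left 36 untested. The threshold was an adjusted p under 0.05 in the limma fit over all 25840 tested probes and a difference of at least 2-fold. Higher in the CPE were 5 ABC probes of 4 genes, *Abca2* (with both of its probes), *Abca7*, *Abcb8* and *Abcb9*, which is 8.62% of the tested ABC probes against 7.09% of all tested probes. Lower were 2 probes, of *Abca13* and *Abcg4*, which is 3.45% against 10.2%. All 7 probes lay on the same side of 0 in all 3 mice. The other 51 tested probes lay within 2-fold of the reference. With median centring in place of loess, 9 ABC probes were higher and 1 was lower, while 14.5% and 7.13% of all tested probes were.

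With the brightest probe taken for each gene, by its mean background-corrected log2 intensity over both channels and all arrays, 35 ABC genes were tested, of which 4 were higher, 2 were lower and 29 were not called. Over all genes counted in this way, 8.13% were higher and 11.2% lower. The median log2 ratio of the 35 genes was 0.17, against -0.04 over all 17656 tested genes. It was 0.11 without mouse 1, 0.08 without mouse 2, 0.27 with the scanner's log ratio and 0.51 with median centring. At an adjusted p under 0.05 with any fold, 17 ABC probes passed, 12 with a ratio above 0 and 5 below, while 16.9% of all tested probes passed above 0 and 22.3% below. For most of the tested ABC genes the fitted ratio was thus within 2-fold, as the plot of log2 ratios shows. The brightest probes of *Abca14*, *Abcc3* and *Abcd2* were well above background in the CPE of 1 mouse alone. Their small ratios do not show that the difference was small.

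**Figure D2:**
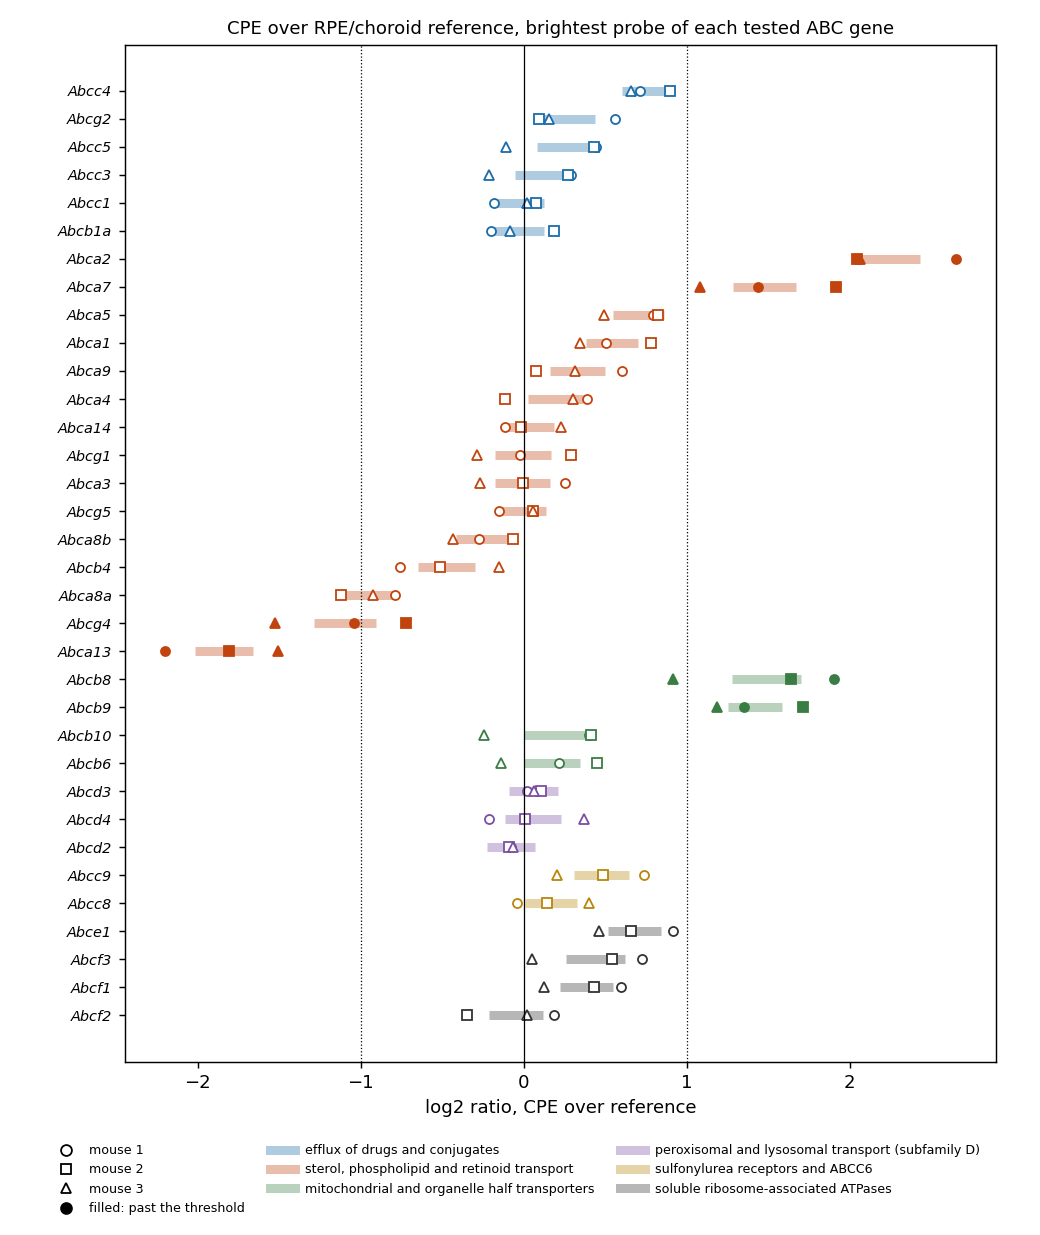
Log2 ratio of CPE over the RPE/choroid reference (x axis) for the brightest probe of each of 34 tested ABC genes (y axis, grouped by role). Symbols are the 3 mice, bars are the fitted mean ± SE, filled symbols mark genes past the threshold and dotted lines mark 2-fold; *Abca2*, *Abca7*, *Abcb8* and *Abcb9* stand to the right, *Abca13* and *Abcg4* to the left.

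The promoters of called genes are shown here because these genes passed the threshold against the reference. RefSeq promoters (build GRCm38.p6), from 250 bases before to 50 bases after the start, were at hand for 37 of the 49 ABC genes in 44 entries, and *Abcb8* and *Abcg4* were not among them. Each is given 5′ to 3′ on the strand of the gene, with capitals for the GC box GGGCGG read on either strand. They are those of *Abca2* (chr2:25428349-25428648, plus strand), *Abca7* (chr10:79996244-79996543, plus strand), *Abcb9* (chr5:124095749-124096048, minus strand) and, lower in the CPE, *Abca13* (chr11:9191692-9191991, plus strand).
Abca2: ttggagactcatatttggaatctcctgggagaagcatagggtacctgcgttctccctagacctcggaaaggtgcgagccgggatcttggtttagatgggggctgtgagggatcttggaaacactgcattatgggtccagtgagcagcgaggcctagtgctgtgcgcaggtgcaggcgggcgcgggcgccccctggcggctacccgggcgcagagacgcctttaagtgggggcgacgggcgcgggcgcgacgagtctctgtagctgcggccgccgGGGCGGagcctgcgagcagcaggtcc
Abca7: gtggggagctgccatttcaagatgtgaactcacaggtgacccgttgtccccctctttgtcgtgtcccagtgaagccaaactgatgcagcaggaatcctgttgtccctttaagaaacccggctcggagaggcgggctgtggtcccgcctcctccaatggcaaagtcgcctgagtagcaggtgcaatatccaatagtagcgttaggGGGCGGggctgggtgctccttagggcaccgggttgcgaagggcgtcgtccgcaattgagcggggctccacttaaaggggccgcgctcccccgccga
Abcb9: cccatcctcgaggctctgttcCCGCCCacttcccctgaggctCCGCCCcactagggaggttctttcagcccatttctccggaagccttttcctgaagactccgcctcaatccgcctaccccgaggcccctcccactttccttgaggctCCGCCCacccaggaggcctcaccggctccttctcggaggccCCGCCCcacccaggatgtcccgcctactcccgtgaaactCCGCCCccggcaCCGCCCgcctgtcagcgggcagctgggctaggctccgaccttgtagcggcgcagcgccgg
Abca13: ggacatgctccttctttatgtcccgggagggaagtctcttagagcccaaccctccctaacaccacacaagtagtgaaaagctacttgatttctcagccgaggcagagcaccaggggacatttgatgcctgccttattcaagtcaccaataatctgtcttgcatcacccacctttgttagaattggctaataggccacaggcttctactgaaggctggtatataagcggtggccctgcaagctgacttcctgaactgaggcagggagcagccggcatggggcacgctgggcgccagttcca
The *Abcb9* window held 6 GC boxes, those of *Abca2* and *Abca7* held 1 each, and that of *Abca13* held 0. Their CpG counts were 23, 26, 19 and 6. A GC box was in 47.7% of the ABC promoters and in 35.7% of all 32851 promoters. Over promoter entries, the median CpG count was 26 for ABC genes whose best probe was high, from 10 entries of 8 genes. It was 18 for moderate, 9 for low and 14 for the 1 promoter of the very low class, against 7 over all promoters. The same classes were not counted over all genes, so the order cannot be called particular to ABC genes. The E-box CACGTG, on either strand, was in 6 ABC promoters (13.6%) against 7.15% of all. The sterol response element TCACNCCAC was in the *Abca3* promoter alone among the ABC genes (2.27% against 1.24%), and the DR4 element of the oxysterol receptors LXR was in 0 of the 44 and in 0.015% of all. These matches describe letters in a short window and were not tested for a link with expression.

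Among the transporters of sterols, phospholipids and retinoids (20 genes, 40 probes), 13 genes were well above background in all mice, 15 were tested, 2 were higher and 2 were lower, beside 8.13% and 11.2% of all genes. The largest ratio among the 35 tested ABC genes belonged to *Abca2*, a transporter of endosomes and lysosomes that is known for sterol and sphingolipid handling and is abundant in the brain. Its brighter probe (mm8 chromosome 2, 25270194 to 25270253) had log2 CPE levels of 12.24, 11.55 and 11.96 in mice 1, 2 and 3. Its log2 ratios were 2.65, 2.05 and 2.06, so that the CPE signal exceeded the reference in all mice. The fitted ratio was 2.25 ± 0.18 (SE, n = 3), or 4.77-fold, with an adjusted p of 9.66e-05 in limma. The other probe, 339 bases upstream, gave 2.92, 2.42 and 1.44, with a fitted ratio of 2.26 ± 0.27 (SE) and an adjusted p of 0.000617. Both probes of *Abca2* thus gave the same size of difference, though the second was more scattered and was lowest in mouse 3.

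*Abca7*, which moves phospholipids and takes part in phagocytosis, was the other sterol and lipid transporter that was higher. Its bright probe (mm8 chromosome 10, 79418621 to 79418680) had CPE levels of 11.28, 11.55 and 11.33, and log2 ratios of 1.44, 1.92 and 1.08. All 3 ratios were above 2-fold, and the fit was 1.48 ± 0.19 (SE, n = 3), or 2.79-fold, with an adjusted p of 0.000964. A probe 14819 bases upstream lay at percentile 30.1, was well above background in mouse 3 alone and was not tested. For *Abca7* the call thus rests on the probe at the 3′ end.

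*Abca1* and *Abcg1*, which load cholesterol onto apolipoproteins and lipoproteins and are known at the blood-CSF barrier, were both in the high class. *Abca1* had CPE levels of 11.27, 11.36 and 11.17 and log2 ratios of 0.51, 0.78 and 0.34. The ratios were above 0 in all mice but under 2-fold, with a fit of 0.54 ± 0.16 (SE) and an adjusted p of 0.0314. *Abcg1* had CPE levels of 11.33, 11.45 and 11.14 and log2 ratios of -0.02, 0.29 and -0.28, which lay on both sides of 0 (fit 0.00 ± 0.17, adjusted p 0.985). The levels of both genes varied little between mice, with SDs of 0.10 for *Abca1* and 0.15 for *Abcg1*. With median centring of the arrays in place of loess, *Abca1* passed the threshold at 1.18 (adjusted p 0.0245) and *Abcg1* reached 0.66 without passing it.

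*Abca4* exports retinoids from the discs of photoreceptors, and the reference holds photoreceptor RNA, so its ratio was given apart. The CPE levels were 11.69, 10.86 and 10.32, with mouse 1 highest and mouse 3 lowest. The reference, the same RNA each time, read 10.25, 10.55 and 9.14 on these arrays, also lowest with mouse 3. The log2 ratios were 0.39, -0.11 and 0.30, with a fit of 0.19 ± 0.17 (SE) and an adjusted p of 0.400. All 7 photoreceptor markers were lower in the CPE, with a median log2 ratio of -4.85, but they were also well above background there in all 3 mice, with *Gnat1* at percentile 93.6. *Abca4* was thus not lower in the CPE with the markers, and what part RNA of photoreceptors had in its signal was not tested.

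*Abca13* and *Abcg4* were lower in the CPE. *Abca13*, one of the largest members of the family, had CPE levels of 7.55, 7.58 and 7.93 at its 3′ probe (mm8 chromosome 11, 9583640 to 9583699), and log2 ratios of -2.20, -1.81 and -1.504. The fit was -1.84 ± 0.18 (SE, n = 3), a 3.58-fold difference, with an adjusted p of 0.000259. A probe 1668 bases upstream gave ratios of -1.38, -0.95 and -0.54, below 0 in all mice, with a fit of -0.96 ± 0.19 (SE), just under 2-fold (adjusted p 0.00688), and it passed without mouse 3, with array weights and with the scanner's log ratio. The third probe, far upstream, was well above background in the CPE of no mouse. *Abca13* was thus near the middle of the array in the CPE (percentile 46.7) and brighter in the reference (77.9).

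*Abcg4*, which exports sterols and is known mainly from neurons, had CPE levels of 8.85, 8.79 and 7.94, lowest in mouse 3. The reference read 9.25, 9.53 and 8.08 on the same arrays, also lowest with mouse 3. The log2 ratios of *Abcg4* were -1.04, -0.72 and -1.53. Its fit was -1.10 ± 0.19 (SE, n = 3), just over 2-fold, with an adjusted p of 0.00356 in limma. It was the call closest to the limit: without mouse 3 the ratio was -0.88, without background correction -0.91, and with median centring -0.67, all under 2-fold. The neuronal markers *Snap25*, *Syt1* and *Nefl* were also lower in the CPE, by -3.72, -3.56 and -4.71 on the log2 scale, and the fourth, *Slc17a7*, had a ratio of -0.66. Summed log2 signals of the neuronal markers were 10.2 to 11.5 in the CPE and 13.5 to 13.8 in the reference, in channels that keep dye differences. The part of these markers in the ratio of *Abcg4* was not tested.

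None of the remaining sterol and lipid transporters passed the threshold. *Abca5*, a lysosomal transporter, had a ratio of 0.70 ± 0.16 (SE) at its brightest probe (adjusted p 0.0104), with 0.79, 0.82 and 0.50 in the mice, and passed under median centring. *Abca8a*, an exporter of cholesterol and organic anions, was below 0 in all mice, at -0.79, -1.12 and -0.92, with a fit of -0.94 ± 0.16 (SE) and an adjusted p of 0.00281, and it passed when mouse 1 was left out. *Abcb4*, the phosphatidylcholine floppase of bile, had a ratio of -0.47 ± 0.17 (SE). The stromal markers *Dcn*, *Lum*, *Col1a1* and *Col3a1* were lower in the CPE as well, *Pdgfra* was not called at 0.65, and the part of stromal cells in the signal of *Abca8a* was not tested. *Abca3*, the phospholipid transporter of lamellar bodies, and *Abcg5*, which works as a dimer with *Abcg8*, had ratios of -0.01 each. *Abca14* to *Abca17*, known from the testis, were low or very low, between percentiles 7.75 and 35.7 at their brightest probe, and none of them was well above background in all mice.

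Of the 12 efflux transporters of drugs and conjugates (22 probes), 5 genes were well above background in all mice. By their brightest probe, 6 were tested and 0 were called in the limma fit. At an unadjusted p under 0.05, the brightest probe of 1 of the 6 passed, that of *Abcc4*, where 51% of all genes did. *Abcc4*, which exports cyclic nucleotides, urate, prostaglandins and drug conjugates, was also the only one in the high class. Its CPE levels were 11.92, 12.01 and 12.21 (mm8 chromosome 14, 117366592 to 117366651) and its log2 ratios 0.72, 0.90 and 0.66. All mice were above the reference, but by less than 2-fold (fit 0.76 ± 0.15, SE, n = 3, 1.69-fold, adjusted p 0.00667), while under median centring the ratio was 1.45 and passed (adjusted p 0.00875). Its second probe, 1411 bases upstream, lay at percentile 50.2 with a ratio of 0.86 in mouse 1 and -0.19 and -0.11 in mice 2 and 3.

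*Abcc1*, the exporter of glutathione conjugates known on the blood side of the CPE, was bright in both channels. Its 3′ probe had CPE levels of 10.12, 10.82 and 10.85, with mouse 1 lowest, and log2 ratios of -0.18, 0.07 and 0.02. The reference read 9.48, 10.35 and 9.94 on the same arrays, also lowest with mouse 1. The fit was -0.03 ± 0.15 (SE, adjusted p 0.900), and its sign changed with the processing. All 3 probes of *Abcc1* were well above background in every mouse, with percentiles of 70.0 to 88.7. *Abcc5*, an exporter of cyclic nucleotides, was at percentile 85.6 with a ratio of 0.26 ± 0.17 (SE), while its probe 69269 bases upstream gave -0.96 ± 0.22 (SE, adjusted p 0.0127) and passed without mouse 2.

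*Abcg2*, an efflux pump of many drugs and of urate, was moderate at both probes (percentiles 80.0 and 79.1). The brighter one had CPE levels of 9.92, 9.17 and 9.74 and log2 ratios of 0.56, 0.10 and 0.15, above 0 in all mice, with a fit of 0.27 ± 0.17 (SE) and an adjusted p of 0.236. The P-glycoprotein genes *Abcb1a* and *Abcb1b*, which are known from the endothelium of the blood-brain barrier, were lower in rank. *Abcb1a*, with 1 probe, had CPE levels of 7.80, 7.90 and 7.77 (percentile 51.5) and log2 ratios of -0.20, 0.19 and -0.08, on both sides of 0 (fit -0.03 ± 0.16, SE, adjusted p 0.898).

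*Abcb1b* had 3 probes, and the brightest was bright in mouse 3 alone. Its CPE levels were 7.34, 7.10 and 10.08. The reference on the same arrays read 7.48, 7.53 and 8.87, although it was the same RNA each time, and this probe was not tested. The 2 tested probes lay at percentiles 38.9 and 46.8, with ratios of -0.39 ± 0.16 (SE, adjusted p 0.0940) and -0.20 ± 0.15 (SE, adjusted p 0.332), below 0 in all mice, and *Abcb1b* gained a call with the scanner's log ratio. The 7 endothelial markers had a median log2 ratio of -0.19, with 0 higher and 1 lower in the CPE. Their summed levels were 13.5 to 13.9 in the CPE and 12.8 to 13.1 in the reference, in channels that keep dye differences. The part of these markers in the signal of *Abcb1a* and *Abcb1b* was not tested. The 2 genes are closely related in sequence, and whether a probe also binds the transcript of the other was not tested.

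The other efflux pumps were dim. *Abcc2*, the conjugate pump of the bile canaliculus, lay at percentile 13.5, *Abcc3*, its basolateral relative, at 28.4, *Abcb5* at 26.4, *Abcg3* at 23.1, *Abcc10* at 37.2 and *Abcc12* at 40.4. None of them was well above background in all 3 mice. *Abcb11*, the bile salt export pump of the liver, lay at 28.3 and was well above background in 1 mouse.

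**Figure D3:**
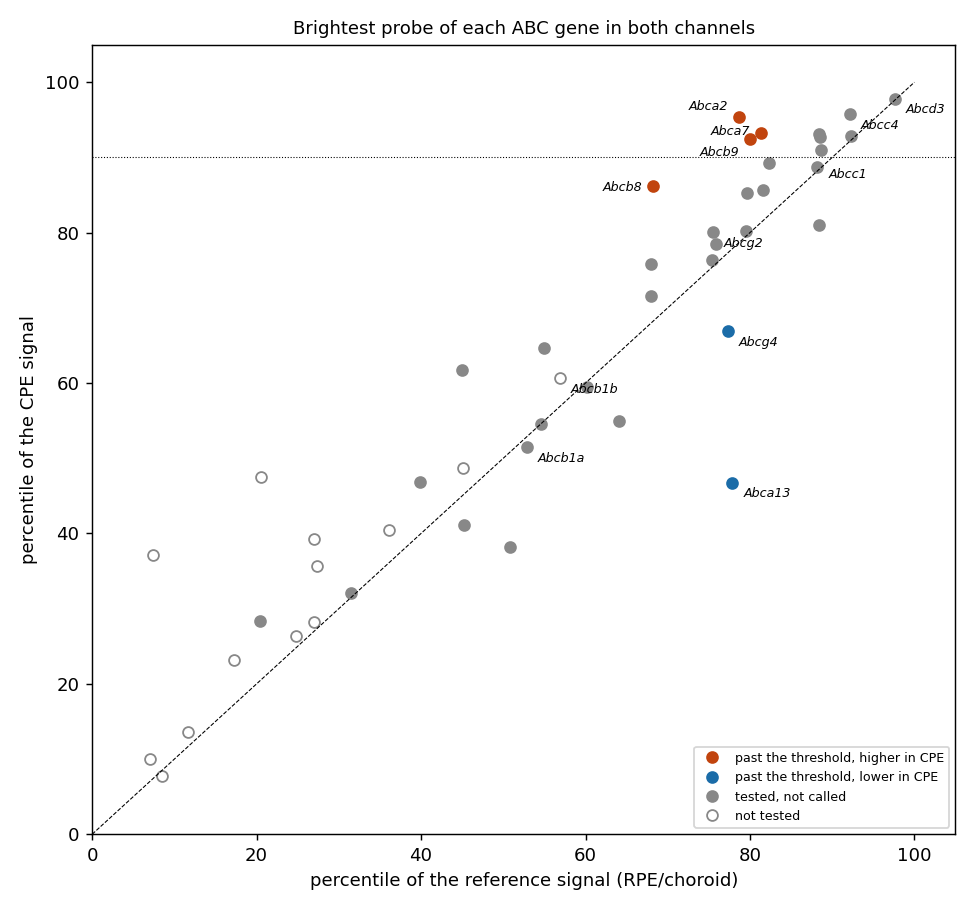
Percentile of the CPE signal (y axis) against percentile of the reference signal (x axis) for the brightest probe of each of 47 ABC genes, each percentile taken from the mean of 3 arrays. Filled points were tested, colours mark the genes past the threshold, the dashed line is equality and the dotted line the limit of the high class at 90; *Abcd3*, *Abcc4* and *Abcg1* are above 90 in both channels, and the other 6 high genes in the CPE alone.

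The dimeric transporters of mitochondria and other organelles (5 genes, 9 probes) held 2 of the higher genes. All 5 were tested and 0 were lower, beside 8.13% higher and 11.2% lower among all genes. *Abcb9*, the lysosomal peptide transporter also called TAPL, had CPE levels of 11.22, 11.48 and 10.92 (mm8 chromosome 5, 124322484 to 124322543). Its log2 ratios were 1.36, 1.71 and 1.19, more than 2-fold in every mouse, and the fit was 1.42 ± 0.17 (SE, n = 3), or 2.68-fold, with an adjusted p of 0.000608. *Abcb8*, a transporter of the inner mitochondrial membrane linked to iron export and to a potassium channel, had CPE levels of 10.35, 9.89 and 10.53 (mm8 chromosome 5, 23918883 to 23919477). Its log2 ratios were 1.91, 1.64 and 0.92, lowest in mouse 3, with a fit of 1.49 ± 0.21 (SE, n = 3), or 2.81-fold, and an adjusted p of 0.00146. The second *Abcb8* probe, 5436 bases upstream, had CPE levels of 7.13, 7.02 and 8.94, was well above background in mouse 3 alone and was not tested.

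When the test was made against 2-fold itself, with limma's treat, only the 2 *Abca2* probes and the *Abca13* probe still passed, and *Abca7*, *Abcb8*, *Abcb9* and *Abcg4* did not. Under that test 1.76% of all tested probes were higher and 3.71% lower. The other mitochondrial and porphyrin transporters did not differ past the threshold. *Abcb6* had a ratio of 0.18 ± 0.17 (SE) and *Abcb10*, needed for heme synthesis, 0.19 ± 0.18 (SE).

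None of 3 tested genes of subfamily D was called by limma. At an unadjusted p under 0.05 in that fit 0 passed, where 51% of all genes did. The subfamily imports very long chain fatty acids and bile acid precursors into peroxisomes, apart from *Abcd4*, which serves vitamin B12 export from lysosomes. *Abcd3*, the 70-kDa peroxisomal membrane protein, gave the highest percentile of all ABC probes, with CPE levels of 13.05, 12.80 and 12.87 (mm8 chromosome 3, 121750997 to 121751056). It was as bright in the reference (percentile 97.7), with log2 ratios of 0.02, 0.10 and 0.06 and a fit of 0.06 ± 0.15 (SE, n = 3, adjusted p 0.775). Its 2 probes further upstream gave fits of -0.53 ± 0.26 (SE) and -0.40 ± 0.28 (SE), and the mean over the 3 probes was -0.29, so that no direction can be given for this gene. *Abcd4* was moderate, with a ratio of 0.06 ± 0.17 (SE). *Abcd2* was low, at percentile 41.1, and was not well above background in all mice.

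The sulfonylurea receptors are ABC proteins that regulate a potassium channel and carry no known substrate. With *Abcc6* they made 3 genes, of which 2 were tested and 0 were called by limma. At an unadjusted p under 0.05 in that fit 1 passed, where 51% of all genes did. *Abcc9*, the form of smooth muscle and pericytes, had a ratio of 0.48 ± 0.17 (SE, adjusted p 0.0565), with 0.74, 0.49 and 0.20 in the mice. *Abcc8*, the form of beta cells and neurons, had 0.17 ± 0.16 (SE), with CPE levels of 7.51, 7.42 and 9.43, and was well above background in 2 mice. Its other probe was the dimmest of all ABC probes, at percentile 0.423. *Abcc6*, the gene of pseudoxanthoma elasticum, was not tested and lay at 48.7. The pore subunits of these channels, *Kcnj8* and *Kcnj11*, had ratios of 0.29 ± 0.19 (SE) and 0.49 ± 0.15 (SE), and neither was called. *Kcnj11* was bright in mouse 3 alone, at 7.74, 7.55 and 10.46 in the CPE and 7.75, 7.82 and 9.15 in the reference. The pericyte and smooth muscle markers were well above background in the CPE for 5 of 5 genes. Their median log2 ratio was -0.36, with 0 higher than the reference and 1 lower, *Myh11*. Their summed levels were 12.4 to 14.3 in the CPE and 13.2 to 13.7 in the reference, in channels that keep dye differences. The part of these markers in the signal of *Abcc9* was not tested.

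The soluble members were well above background in all mice for 4 of 4 genes, and 0 were called by limma. At an unadjusted p under 0.05 in that fit 3 passed, where 51% of all genes did. *Abce1*, which splits ribosomes after termination, was in the high class with CPE levels of 11.48, 11.11 and 11.48. Its log2 ratios were 0.91, 0.66 and 0.46, above 0 in all mice but under 2-fold, with a fit of 0.68 ± 0.16 (SE) and an adjusted p of 0.0137, and with median centring it passed at 1.30 (adjusted p 0.0173). Its second probe, 23800 bases upstream, was low, at percentile 45.8, with a ratio of -0.13 ± 0.15 (SE, adjusted p 0.530 in limma). The mean over the probes of *Abce1* was 0.27 (adjusted p 0.168 in limma), so the difference did not hold across them. *Abcf1*, *Abcf2* and *Abcf3*, which act in translation, had ratios of 0.38 ± 0.16, -0.05 ± 0.17 and 0.44 ± 0.18 (SE).

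Probes of 1 gene often differed in mouse 2. For 17 ABC genes with probes at least 100 bases apart on the genome and well above background in the reference on all arrays, the ratio of the most upstream probe (5′) was set against that of the most downstream probe (3′), and each mouse against the mean of the other 2. The 5′ probe was relatively lower in mouse 2 in 13 of the 17 genes, in mouse 1 in 7 and in mouse 3 in 6. The median deviations were -0.19, 0.06 and 0.13 in mice 2, 1 and 3. Within a gene the deviations of the mice cancel, so these counts depend on each other. The same count was not made over all genes of the array, so it cannot be called particular to ABC genes.

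The gap was widest in *Abcd3*, at -1.47 in mouse 2, where both upstream probes had ratios of -1.34 and -1.33 while the 3′ probe had 0.10. It was -1.11 in *Abcc1*, and -0.99 in both *Abcg2* and *Abca3*. *Abcc5*, *Abca2* and *Abcf1* went the other way, with 5′ probes relatively higher in mouse 2 by 0.70, 0.55 and 0.91. The RNA had been amplified before labelling, and the paper gives its integrity as a range over the mice, not for each mouse. What part amplification or integrity had in the gap was not tested. Over the 42 ABC probes measured in both channels, the median SD between mice of the CPE level was 0.40, against 0.34 over all such probes on the array and 0.33 for the reference at the same ABC probes.

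**Figure D4:**
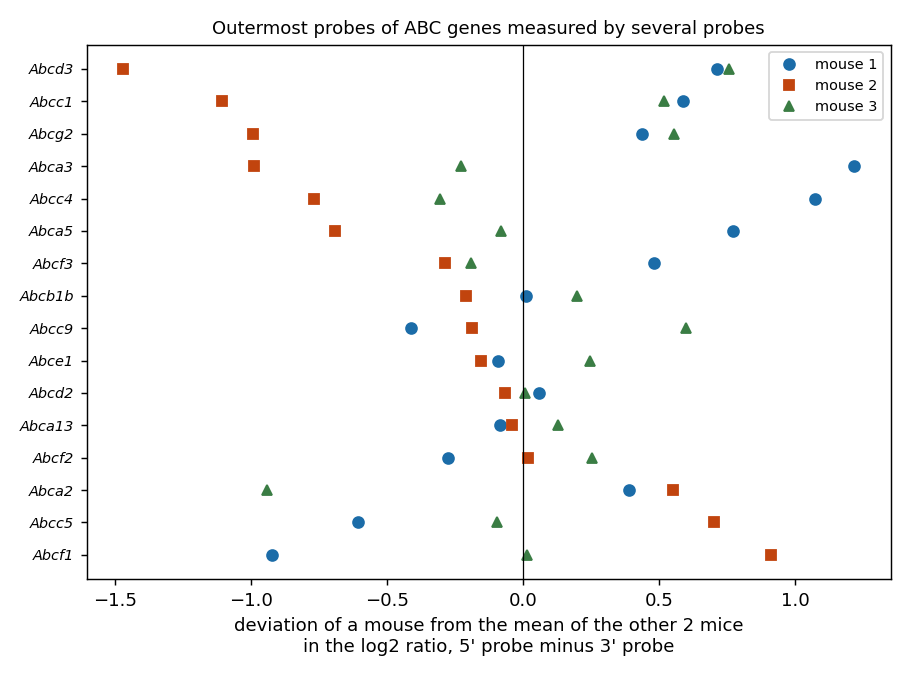
For each of 16 ABC genes with several probes (y axis), the deviation of each mouse from the mean of the other 2 in the log2 ratio, 5′ probe minus 3′ probe (x axis). Symbols are the mice; mouse 2 lies left of 0 for 12 genes, farthest for *Abcd3* at -1.47.

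Genes that work with ABC transporters were set beside them, in 10 lists with 1 probe per gene. Over the lists, 18 genes were higher and 12 lower, and the share of each list can be read against 8.13% and 11.2% of all genes. Of 15 tested regulators of ABC genes, most of them transcription factors, 2 were higher and 1 lower. *Nr1h2*, the LXRβ gene and a main activator of *Abca1* and *Abcg1*, had log2 ratios of 1.64, 1.26 and 0.74 (fit 1.21 ± 0.20, SE, adjusted p 0.00273). *Srebf2*, the main regulator of cholesterol synthesis, had 1.78, 1.87 and 1.60 (fit 1.75 ± 0.15, SE, adjusted p 0.000147). The retinoid receptor *Rxrg* was lower, at -1.05 ± 0.20 (SE), and *Nr1h3*, the LXRα gene, had 0.83 ± 0.22 (SE) without passing.

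Among 15 tested acceptors and partners of sterol efflux, 3 were higher and 1 lower. *Pltp*, which moves phospholipids between lipoproteins, had a ratio of 2.75 ± 0.22 (SE), *Lcat*, which esterifies their cholesterol, 1.17 ± 0.18 (SE), and *Apoc1* 1.07 ± 0.17 (SE). *Apod* was lower at -3.06 ± 0.24 (SE). *Apoe* and *Clu*, the main acceptors in the CSF, were among the brightest probes of the array in the CPE, both at percentiles above 99 (99.97 and 99.9), with ratios of 0.48 and 0.74 that did not pass. The *Apoe* spot was saturated in the CPE channel on 2 of 3 arrays and the *Clu* spot on 1, so their ratios are bounds from below and their ranks are not exact.

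The solute carriers that share drugs and organic anions with ABC pumps had 5 higher and 1 lower of 16 tested. *Slc29a4*, a monoamine transporter, had a ratio of 3.54 ± 0.19 (SE), *Slco1c1*, a thyroid hormone transporter, 2.93 ± 0.18 (SE), *Slc22a17* 2.60 ± 0.24 (SE), *Slco1a5* 1.63 ± 0.20 (SE) and the nucleoside transporter *Slc28a3* 1.26 ± 0.20 (SE). *Slco4a1* was lower at -2.98 ± 0.17 (SE). The uptake partner of the efflux pumps for organic anions, *Slc22a8* (OAT3), was at percentile 92.7 with a ratio of 0.92 ± 0.15 (SE), under 2-fold.

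Of 23 tested glutathione and conjugation genes, whose products subfamily C exports, 2 were higher and 7 lower. *Ltc4s*, which makes the leukotriene that *Abcc1* carries, had ratios of 3.85, 3.66 and 3.34 in the mice (fit 3.62 ± 0.17, SE), and the epoxide hydrolase *Ephx1* 1.24 ± 0.17 (SE). The alpha class transferases *Gsta3*, *Gsta1*, *Gsta2* and *Gsta4* were lower, at -5.21, -4.89, -4.02 and -2.13, with *Gstp1* at -1.69, *Mgst1* at -1.49 and *Gclc*, the rate-limiting enzyme of glutathione synthesis, at -1.05. Probes of the alpha class can share sequence between genes, and this was not tested. These lower genes are lower relative to the eye tissue, and *Gstp1* and *Mgst1* were still at percentiles 98.9 and 97.1 in the CPE.

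The family members with other symbols were *Tap2*, *Tap1* and *Cftr*. *Tap2*, a subunit of the peptide transporter of antigen presentation, was higher, with ratios of 2.13, 2.18 and 1.02 (fit 1.78 ± 0.25, SE, adjusted p 0.00126), while *Tap1* had 0.50 ± 0.16 (SE) and *Cftr*, a chloride channel, 0.23 ± 0.16 (SE). The *Cftr* probe was well above background in the CPE of 1 mouse, with levels of 7.24, 7.03 and 10.17 in mice 1, 2 and 3. The reference read 7.37, 7.35 and 9.12 on the same arrays. Of 8 partners in peptide loading, *Pdia3* (2.23 ± 0.16, SE) and *Calr* (1.94 ± 0.19, SE), both chaperones of the endoplasmic reticulum, were higher, and *B2m*, the light chain of the class I molecule, was lower (-1.93 ± 0.16, SE).

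Of 15 tested peroxisomal genes, *Acox2*, an oxidase of bile acid precursors, was higher at 2.17 ± 0.34 (SE, with 2.63, 2.87 and 1.00 in the mice), the thiolase *Acaa1b* was higher at 1.04 ± 0.16 (SE), and 0 were lower. Of 13 mitochondrial iron-sulfur and heme genes, *Alas1*, the first enzyme of heme synthesis outside red cells, was higher at 1.14 ± 0.15 (SE), and *Alas2*, the red cell form, was lower at -1.12 ± 0.16 (SE). Of 8 genes of ribosome recycling, 0 were called by limma, with ratios from -0.48 for *Hbs1l* to 0.53 for *Gcn1l1*. At an unadjusted p under 0.05 in that fit 1 passed, where 51% of all genes did.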

How the data were processed

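Expression was measured with 2-colour Agilent arrays. The authors made the deposited scanner tables with Agilent Feature Extraction 9.5.3.1; they hold intensity values of both channels and, per the file headers, a log10 ratio of the processed red over green signal. The authors also deposited 1 log2 value per spot and array, normalized between arrays with Aquantile in R 2.14.0. Its column medians were 6.86, 6.82 and 6.85, and its rank correlation with the CPE channel was 0.9985, 0.9976 and 0.9989 (0.848 to 0.928 with the reference channel), so it was taken as CPE levels; whether a background was subtracted is not given in the sources used here.

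Here the 41534 spots other than controls were read with limma 3.58.1 in R 4.3.3 and spots of a probe averaged, outlier spots left out. CPE and reference levels are log2 mean intensities without background correction, after Aquantile. They keep dye differences that depend on brightness and are not to be subtracted from each other. Log2 ratios were made with normexp (offset 50) and loess within arrays. The limma model had an intercept alone, tested against 0 with Benjamini-Hochberg adjustment over 25840 probes, and was tested on simulated data. Each array lay on its own slide, so that slide and mouse cannot be told apart. The number of arrays, 3, limits the precision. With 3 mice of 1 group, outlier tests between samples were not made. Coordinates of probes were taken as the scanner files give them (mm8). They were not set against an annotation, so exons and untranslated regions are not given, and distances between probes are on the genome.

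All ABC genes could be named, but 2 are not reported here by name; they are counted with the family and left out of the figures. Full values were given for genes past the threshold or in the high class, and for *Abcb1a*, *Abcb1b*, *Abcc1*, *Abcc4*, *Abcg2*, *Abca1*, *Abcg1* and *Abca4* in any case; partner genes were named where past the threshold, and a few others were named after their values were seen. The members, lists and tests were chosen with earlier results of these data known. Summed marker signals are log2 of the summed linear levels. The study's human arrays were not analysed here.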

Additional observations from a re-analysis of the deposited data

How the results depend on the processing

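No paired analysis was possible because there is no other group of samples to pair with; the channels of an array are already set against each other in its ratio. Median centring in place of loess took the median of all tested probes from -0.04 to 0.09 and the calls over the array from 7.09% higher and 10.2% lower to 14.5% and 7.13%. Under it, ABC probes higher in the CPE went from 5 to 9 and lower from 2 to 1, partner genes from 18 to 39 and from 12 to 7, and the median of 1 probe per ABC gene from 0.17 to 0.51 (0.27 with the scanner's log ratio). ABC probes lower were 1 with no background correction and 4 with the scanner's log ratio. With limma's treat against 2-fold, ABC probes were 2 higher and 1 lower, and partner genes 8 higher and 8 lower, with 1.76% and 3.71% of all probes. At any fold they were 12 and 5, and partner genes 41 and 25. High ABC genes went from 9 to 2 when only probes well above background were ranked and to 3 with a limit at the 95th percentile. ABC genes well above background went from 29 to 46 when 2 SD above the local background was asked.

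Leaving out each mouse in turn gave 5 ABC probes higher each time and 2 to 3 lower, 17 to 21 and 11 to 13 partner genes, a median of 0.08 to 0.14, 9 high genes and 29 to 35 genes well above background. Ratios near 0 changed sign. *Abcc1* was 0.0512 with the scanner's log ratio and 0.55 with median centring, and -0.0808 to 0.0478 when a mouse was left out. *Abcb1a* was -0.141 to 0.0527 when a mouse was left out. *Abcg1* was 0.0133 with no background correction, 0.0563 with the scanner's log ratio, 0.66 with median centring, 0.0229 with array weights, and -0.153 to 0.135 when a mouse was left out. *Abcd3* was -0.29 as the mean of its probes. The cause was not tested. Signals near the background limit what can be said of the 36 untested probes.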
